A study of Mus musculus with 6 samples.

Results

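The genes described here encode complex III and cytochrome oxidase (complex IV) of the mitochondrial respiratory chain, with cytochrome c, which shuttles between them. They are 35 of the 54532 genes in a table of RNA-seq counts from mouse quadriceps, chosen by name from the known subunits and assembly factors and matched to the table through GENCODE gene identifiers. All 35 were found and all passed the filter on low counts. The muscles came from pups 10 days old. The control group is Pcyt2 flox/flox, with both copies of Pcyt2 flanked by loxP sites, and has 3 libraries. The other group, Myf5Cre-Pcyt2, carries the same floxed Pcyt2 with a Cre recombinase named for Myf5 and also has 3 libraries. The labels do not say that the controls carry Cre, and they give neither the strain nor the deleted exons. Both groups were fed chow diet. Myf5 is active in muscle precursors, and also in precursors of brown adipocytes, so Cre under its control is not limited to the muscle fibre. The labels do not say whether the pups of a group were littermates, and p-values cover no more than the spread among these samples.

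Total counts per library ran from 17775898 to 20446920. Pcyt2 encodes an enzyme of the CDP-ethanolamine pathway, which makes phosphatidylethanolamine. Its raw counts read 353, 277 and 277 for control, against 280, 328 and 272 in Myf5Cre-Pcyt2, and its level was 82.3% of the control level, with a 95% interval of 69.6 to 97.2%. At an adjusted p of 0.0944 it did not pass the test. The count covers the whole gene, and exons outside the deleted part check nothing. The tissue label fits its markers: Acta1, skeletal alpha-actin, reached 49714 CPM (counts scaled to library depth) on average in control, and 32819 in Myf5Cre-Pcyt2. In whole muscle, fewer cells of a type and less RNA per cell cannot be told apart. On the first principal component control replicate 2 (−40.6) and Myf5Cre-Pcyt2 replicate 2 (35.5) lay farthest from the other group, and the counts below are given without them as well.

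Complex III passes electrons from ubiquinol to cytochrome c and moves protons across the inner membrane as it does so. Cytochrome oxidase takes the electrons from cytochrome c and reduces oxygen to water. Most of their subunits are encoded in the nucleus and join a core encoded in mitochondrial DNA. Several cytochrome oxidase subunits exist as pairs of isoforms. Contractile muscle uses Cox6a2, Cox7a1 and Cox8b in place of, or alongside, the widely expressed Cox6a1, Cox7a2 and Cox8a.

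The 250 bases before the annotated start are printed for both members of 2 isoform pairs and for Cox6a1, because the results below turn on these pairs. The sequences are from RefSeq on GRCm38.p6, read 5′ to 3′ on the gene's strand, and capitals mark the motif matches described next. The windows are chr7:30183921-30184170 (plus strand), chr7:140900447-140900696, chr9:79759854-79760103, chr19:7217617-7217866 and chr5:115348959-115349208 (all 4 on the minus strand).
Cox7a1: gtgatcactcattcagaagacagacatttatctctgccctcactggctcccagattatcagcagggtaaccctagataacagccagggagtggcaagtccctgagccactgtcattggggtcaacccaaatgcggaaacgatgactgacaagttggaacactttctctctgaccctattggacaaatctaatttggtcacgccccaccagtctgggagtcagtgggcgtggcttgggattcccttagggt
Cox8b: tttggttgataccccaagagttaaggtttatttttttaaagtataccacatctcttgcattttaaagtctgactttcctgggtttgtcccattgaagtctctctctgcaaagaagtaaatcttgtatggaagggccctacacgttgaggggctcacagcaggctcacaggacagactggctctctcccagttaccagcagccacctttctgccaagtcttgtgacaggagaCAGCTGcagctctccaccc
Cox7a2: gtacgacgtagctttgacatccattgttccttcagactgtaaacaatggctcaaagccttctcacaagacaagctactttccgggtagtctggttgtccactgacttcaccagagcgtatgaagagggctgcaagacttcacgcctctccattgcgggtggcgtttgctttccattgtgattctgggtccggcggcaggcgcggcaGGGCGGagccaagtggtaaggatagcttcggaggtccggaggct
Cox8a: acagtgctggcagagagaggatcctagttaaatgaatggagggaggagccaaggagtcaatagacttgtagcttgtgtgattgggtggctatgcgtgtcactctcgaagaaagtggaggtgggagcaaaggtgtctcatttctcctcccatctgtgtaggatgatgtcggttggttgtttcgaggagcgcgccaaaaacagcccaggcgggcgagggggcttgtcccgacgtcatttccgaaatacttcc
Cox6a1: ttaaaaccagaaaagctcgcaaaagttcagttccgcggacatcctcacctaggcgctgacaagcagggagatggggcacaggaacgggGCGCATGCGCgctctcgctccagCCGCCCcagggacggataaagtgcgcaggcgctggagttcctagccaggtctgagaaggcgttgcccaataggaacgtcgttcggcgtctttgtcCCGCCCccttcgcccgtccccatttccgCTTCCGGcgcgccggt

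The RefSeq promoters used here cover 26 of the 35 genes, and the muscle isoform Cox6a2 is not among them. Promoters of the muscle isoforms Cox7a1 and Cox8b held 4 CpG and 1 CpG in 250 bases, against 14, 11 and 26 in those of Cox7a2, Cox8a and Cox6a1. The median over all promoters of the table was 6. Motifs were searched on both strands by exact letters, except MEF2, whose middle positions could each be A or T. Cox6a1 held the NRF1 motif, the run in capitals 162 to 153 bases before the start, which is present in 0.782% of all 32851 promoters. It also held the GABP motif CCGGAAG, found in 7 of the 26 member promoters in the table and in 6.91% of all. Besides Cox6a1, those 7 were Bcs1l, Cox10, Cox6b1, Sco1, Uqcr11 and Uqcrh. The SP1 motif GGGCGG stood in Cox7a2 and in Cox6a1, in 10 of 26 members and in 32.7% of all promoters. Cox8b held the E-box CAGCTG, a motif bound by MyoD, 19 to 14 bases before its start, which 2 members and 13.0% of all promoters share. TATAAA, the letters of a TATA box, was in 1 member promoter (Cox10), on the strand opposite to the gene, and in 12.4% of all. The ERR motif TCAAGGTCA, the YY1 motif AAGATGGCG and the MEF2 motif were in none of the 26, and in 0.387%, 0.606% and 0.508% of all promoters.

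Many complex III and cytochrome oxidase genes were lower in Myf5Cre-Pcyt2 quadriceps, and none was called higher. Of the 35 genes, 20 fell, 0 rose and 15 did not pass the threshold of 0.05 on the adjusted p (edgeR's quasi-likelihood test, Benjamini-Hochberg over 14715 genes). Across all tested genes 9.59% were called lower and 9.02% higher. The median log2 fold change of the 35 was −0.44, with 33 below 0, against −0.00197 over all tested genes. In 27 of the 35 every Myf5Cre-Pcyt2 library lay below every control library, as in 19.2% of tested genes. In the other 8 (Uqcrb, Cycs, Cox4i2, Cox6a1, Cox8a, Cox7c, Sco1 and Surf1) the groups overlapped.

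Summed over the 35 genes, the level was 9658, 10115 and 11081 CPM over the controls, against 7992, 6728 and 6915 CPM in Myf5Cre-Pcyt2. These sums did not overlap between the groups. The sum of the 7 skeletal fibre markers, most of it Acta1 and Myh4, was also lower: 134553 to 188037 CPM over the controls, against 91246 to 116191 CPM in Myf5Cre-Pcyt2. Of these markers Ckm (creatine kinase, −0.94), Mb (myoglobin, −0.86) and Tnnt3 (fast troponin T, −0.65) fell on the log2 scale, and none rose. The other 4 did not pass, with log2 fold changes of −0.60 for Acta1 and −0.69 for Myh4 but 0.20 for Ttn and 0.23 for Myh1. As a share of the fibre marker sum, the 35 genes made up 6.68, 5.38 and 8.24% in control, against 6.88, 7.37 and 6.54% in Myf5Cre-Pcyt2, and these shares overlapped. Markers of other cells also moved. The sums of fibroblast, Schwann cell and satellite cell markers were higher in every Myf5Cre-Pcyt2 library than in any control (270.5 to 328 against 399.5 to 561 CPM for the Schwann markers). Of their genes, 1 of 5, 3 of 4 and 2 of 3 were called higher. Of all tested genes, 9.02% were called higher, and 19.9% were higher with no overlap between groups. Most of the fibroblast sum was Col1a1 and Col3a1 (log2 fold change 0.36 for each). Neither passed, and Col1a1 overlapped between groups. Pdgfra (0.54) was the only fibroblast marker called. The smooth muscle sum was lower in every Myf5Cre-Pcyt2 library (844 to 965 against 428 to 648 CPM), and of its 3 genes Acta2 fell (log2 fold change −0.81 with SE 0.17, adjusted p = 0.0117). Acta2 made up most of that sum. Myh11 (log2 fold change 0.27) and Cnn1 (−0.04) did not pass and overlapped between groups, so the lower sum is that of Acta2 alone. The part of these shifts in the fall of the 35 genes was not tested.

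**Figure D1:**
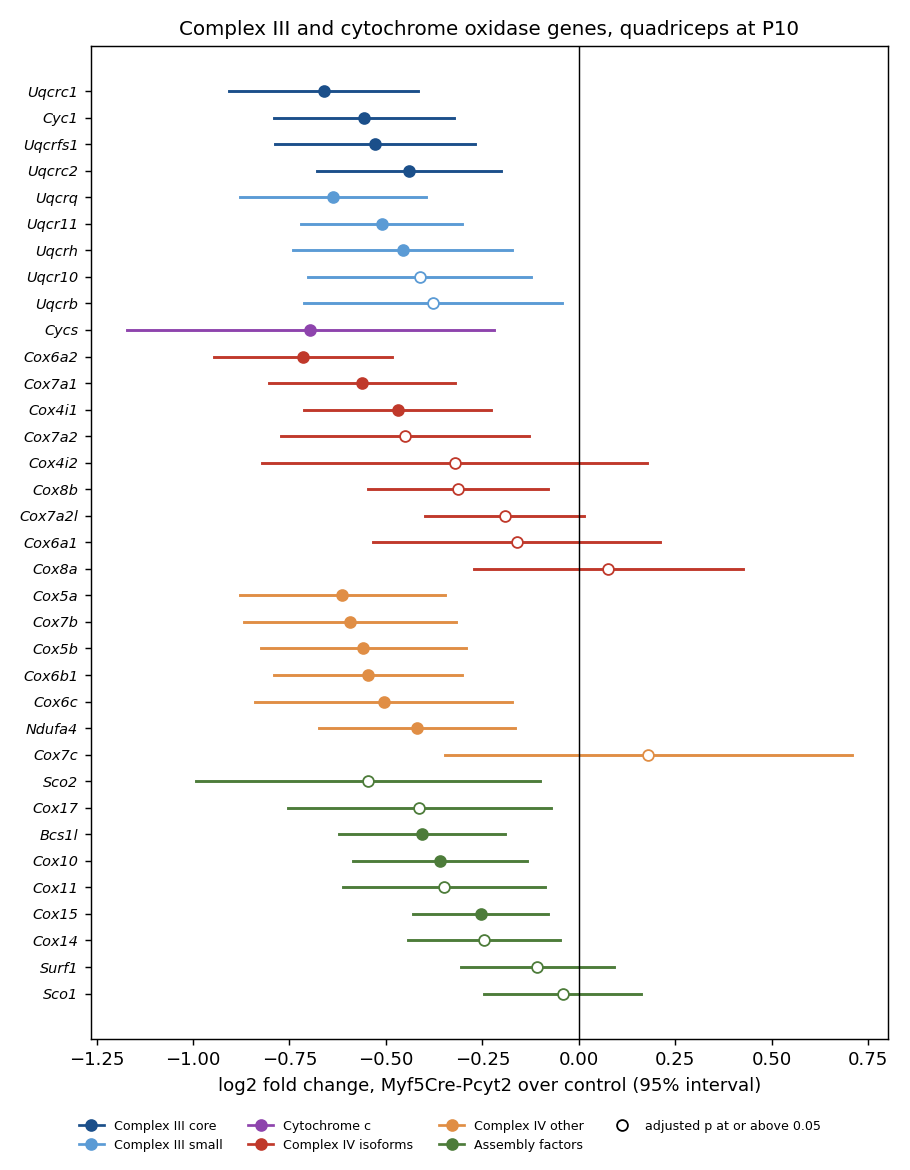
Log2 fold change of each of the 35 genes, Myf5Cre-Pcyt2 against control, with 95% intervals, grouped by role. Filled points are the 20 genes past the threshold, all to the left of 0, and Cox8a and Cox7c, both open, are the 2 to the right of it.

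How many of the 35 passed depended on the libraries and the scaling, while 29 or more of the 35 fold changes stayed below 0 in every alternative. Without Myf5Cre-Pcyt2 replicate 2 or replicate 3 the number called lower was 7 or 8, when 2.85% and 4.31% of all genes were. The 7 (Uqcrc1, Cyc1, Uqcrq, Uqcr11, Cox6a2, Cox7a1 and Cox5a) were also called with any other single library left out. Without control replicate 3 the number was 14 (7.47% of all genes), without control replicate 2 17 (4.66%), and without replicate 1 of either group 22 (9.67% for control and 8.59% for Myf5Cre-Pcyt2). With both replicate 2 libraries left out, a choice made after seeing the data, Cox6a2 was the 1 gene called, against 0.835% of all genes, and all 35 fold changes were below 0. Scaling by total count alone moved the median of all genes up by 0.21. Under it 10 of the 35 were called lower, against 3.39% of all genes, and 6 were above 0. The median of the 35 was then −0.23 and that of all genes 0.21. Other tools and filters called 21 to 26 of the 35. In these the share of all genes called lower was 9.87% with DESeq2 size factors, 9.85% with DESeq2, 9.55% with limma-voom, 10.4% with a minimum of 1 CPM in 3 libraries and 6.67% with no filter on low counts. A replicate block called 15, and 5.89% of all genes. None of the 35 was called higher in any alternative, when 0.774% to 21.9% of all genes were.

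**Figure D2:**
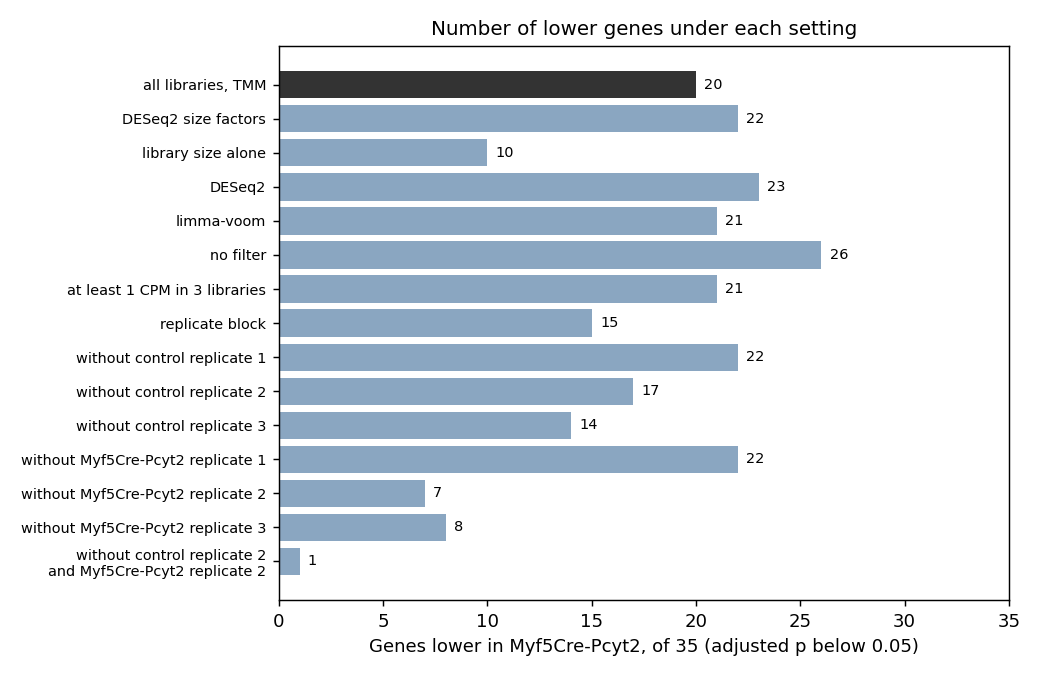
Number of the 35 genes called lower in Myf5Cre-Pcyt2 (adjusted p below 0.05) with all libraries and TMM scaling (dark bar) and under each of 14 alternatives. The count runs from 1 without both replicate 2 libraries to 26 without a filter on low counts, and is 20 in the main analysis.

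The 4 core genes of complex III all fell, with a median log2 fold change of −0.54. Uqcrc1 (core protein; GRCm38 chromosome 9, 108936633 to 108949623) was at 799.7, 948 and 887 CPM in control, against 577, 508 and 581 CPM in Myf5Cre-Pcyt2. No library of one group reached the other, and the mean level was 63.2% of the control level, with a 95% interval of 53.4 to 74.9% (log2 fold change −0.66 with SE 0.11, adjusted p = 0.00492). Cyc1, the cytochrome c1 subunit (chromosome 15, 76343523 to 76346260), was at 625, 671 and 732 CPM in control, against 497, 443 and 439 CPM in Myf5Cre-Pcyt2. Cyc1 was highest in control replicate 3 and nearly equal in Myf5Cre-Pcyt2 replicates 2 and 3, and its mean went from 676 ± 53.7 to 459 ± 32.5 CPM (SD, n = 3; log2 fold change −0.56 with SE 0.11, adjusted p = 0.00756). Uqcrc2, the other core protein, had the largest p of the 4, at 695, 775 and 813 CPM in control, against 601, 519 and 563 CPM in Myf5Cre-Pcyt2. Its groups were also apart, by less (log2 fold change −0.44 with SE 0.11, adjusted p = 0.0201), and 17.6% of its 50-base stretches are shared with Pdzd9, a gene at no more than 1.83 CPM in any library. Uqcrfs1, the Rieske iron-sulphur protein, fell as well (log2 fold change −0.53 with SE 0.12, adjusted p = 0.0139).

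Of the 5 small complex III subunits, Uqcrq, Uqcr11 and Uqcrh fell and Uqcrb and Uqcr10 did not pass. Uqcrq, a small membrane subunit (chromosome 11, 53427922 to 53430831), was at 316, 326 and 351 CPM in control, against 245, 195 and 199 CPM in Myf5Cre-Pcyt2. The drop to 64.3% of the control level, with a 95% interval of 54.4 to 76.0%, had an SE of 0.11 on the log2 scale and an adjusted p of 0.00539. For Uqcr11 the values were 217, 218 and 245 CPM in control, against 173, 151 and 154 CPM in Myf5Cre-Pcyt2 (log2 fold change −0.51 with SE 0.09, adjusted p = 0.00697). Both genes were lower in each Myf5Cre-Pcyt2 library than in any control. Uqcrb, at 118, 119 and 162 CPM in control, against 123, 97.7 and 86.9 CPM in Myf5Cre-Pcyt2, overlapped between groups because Myf5Cre-Pcyt2 replicate 1 exceeded control replicates 1 and 2 (log2 fold change −0.38 with SE 0.15, adjusted p = 0.106). Without that library Uqcrb passed, at −0.53 (adjusted p = 0.0407), and without control replicate 3 it was at −0.21. Its sequence is less distinct, with 25.5% of 50-base stretches shared with other genes, 4 of them pseudogenes. Uqcrh, the hinge protein, had a log2 fold change of −0.46 (adjusted p = 0.0334) and Uqcr10 one of −0.41 (adjusted p = 0.0504).

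Cycs, somatic cytochrome c, the carrier between the complexes and a trigger of the apoptosome, fell from 33.4 ± 6.47 to 20.7 ± 6.93 CPM (SD, n = 3; log2 fold change −0.70 with SE 0.22, adjusted p = 0.0463). Single libraries were at 26.3, 35.2 and 38.8 CPM in control, against 27.8, 14.0 and 20.3 CPM in Myf5Cre-Pcyt2. Myf5Cre-Pcyt2 replicate 1 lay above control replicate 1, so the groups overlapped although the test passed, and Cycs passed in 8 of 14 alternatives. It did not pass without replicate 2 or 3 of either group. Of its 50-base stretches, 26.1% occur in 76 other genes, 10 of them pseudogenes. The summed level of these genes was 1859 to 2139 CPM over the libraries, far above that of Cycs, so its value is uncertain.

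**Figure D3:**
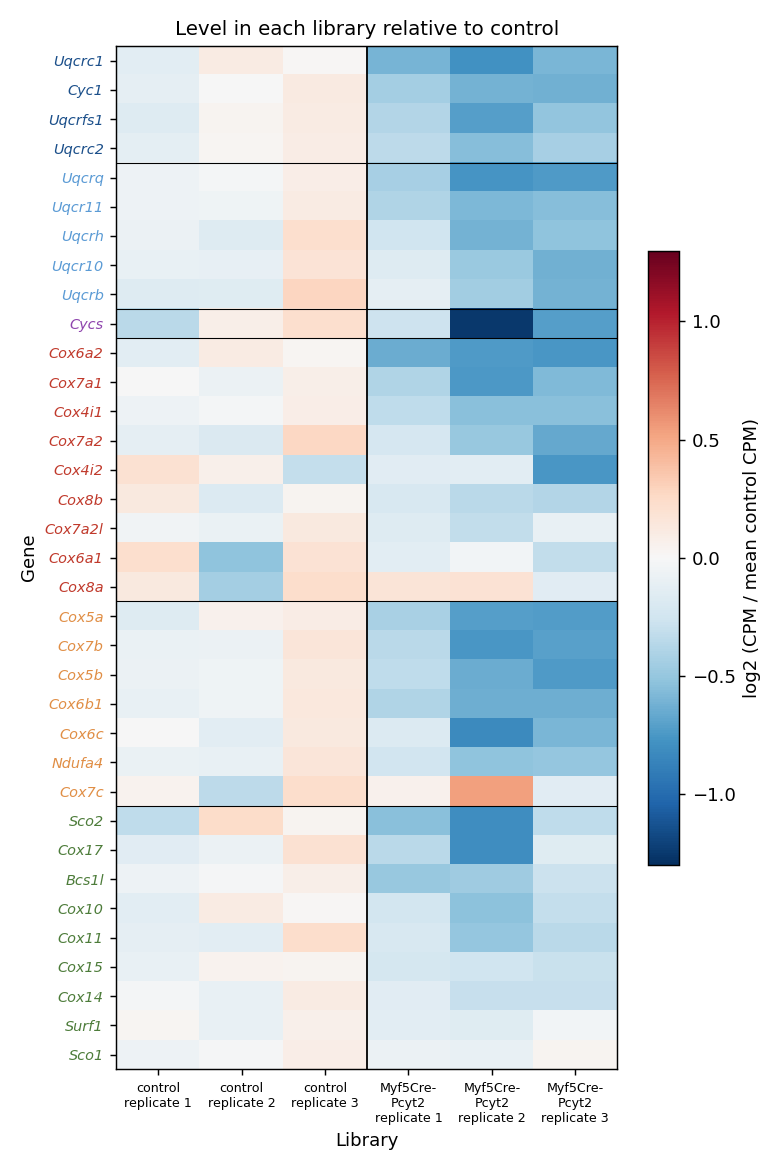
Level of each of the 35 genes in each of the 6 libraries, as log2 of its CPM over its mean control CPM (blue lower, red higher), with gene names coloured by role. In 27 of the 35 rows every Myf5Cre-Pcyt2 cell lies below every control cell, and the darkest blue is Cycs in Myf5Cre-Pcyt2 replicate 2.

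Among the 9 genes of the cytochrome oxidase isoform pairs, the muscle isoforms Cox6a2 and Cox7a1 and the common Cox4i1 fell, and 6 did not pass. Cox6a2, the heart and muscle isoform of subunit VIa (chromosome 7, 128205435 to 128206387), was at 701, 832 and 784 CPM in control, against 494, 463 and 456 CPM in Myf5Cre-Pcyt2. It fell to 61.0% of the control level, with a 95% interval of 51.9 to 71.5%, the largest fall of the 35 genes with all libraries and TMM scaling, and its mean moved from 773 ± 66.2 to 471 ± 20.3 CPM (SD, n = 3; log2 fold change −0.71 with SE 0.10, adjusted p = 0.00341). Cox6a2 alone passed in all 14 alternatives, with adjusted p no higher than 0.0316. The fall of Cycs was larger under limma-voom, under the replicate block and without replicate 1 of either group, and that of Uqcrc1 was larger without Myf5Cre-Pcyt2 replicate 3. Its widely expressed partner Cox6a1 was at 76.6, 45.9 and 75.2 CPM in control, against 60.1, 64.1 and 52.7 CPM in Myf5Cre-Pcyt2. Control replicate 2 held the lowest Cox6a1 and the highest Cox6a2 of the controls, and Cox6a1 overlapped between groups (log2 fold change −0.16 with SE 0.17, adjusted p = 0.533). Single libraries moved it, to −0.36 (adjusted p = 0.0599) without control replicate 2 and to −0.036 without control replicate 1.

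Cox7a1, the muscle isoform of subunit VIIa (chromosome 7, 30184144 to 30186078), was at 404, 387 and 429.6 CPM in control, against 309.9, 243 and 274 CPM in Myf5Cre-Pcyt2. The groups stood apart, and Cox7a1 was 67.7% of the control level, with a 95% interval of 57.3 to 80.0% (log2 fold change −0.56 with SE 0.11, adjusted p = 0.00822). The common isoform Cox7a2 was at 279, 266 and 365 CPM in control, against 259.7, 215 and 191 CPM in Myf5Cre-Pcyt2. It too was lower in every Myf5Cre-Pcyt2 library, but control replicate 3 was far above the others and the test was not passed (log2 fold change −0.45 with SE 0.15, adjusted p = 0.0533). Cox7a2 passed without replicate 1 of either group and was at −0.30 without control replicate 3. Cox7a2l, a related protein that links complexes III and IV in supercomplexes, was at 63.6, 61.8 and 71.8 CPM in control, against 58.5, 52.7 and 61.4 CPM in Myf5Cre-Pcyt2 (log2 fold change −0.19 with SE 0.09, adjusted p = 0.170). Its highest Myf5Cre-Pcyt2 library lay just below the lowest control.

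Cox8b, the muscle isoform of subunit VIII (chromosome 7, 140898945 to 140900446), was at 399.8, 325 and 376 CPM in control, against 317, 287 and 281 CPM in Myf5Cre-Pcyt2. These values did not overlap, with control replicate 2 nearest to the Myf5Cre-Pcyt2 libraries, and Cox8b did not pass (log2 fold change −0.31 with SE 0.11, adjusted p = 0.0610). Without control replicate 2 it did, at an adjusted p of 0.0400. The common isoform Cox8a, at 56.1, 37.7 and 59.8 CPM in control, against 57.3, 58.4 and 46.3 CPM in Myf5Cre-Pcyt2, overlapped between groups (log2 fold change 0.08 with SE 0.16, adjusted p = 0.766). Its direction turned to −0.10 without control replicate 2.

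Cox4i1 encodes the common form of the regulatory subunit IV and Cox4i2 a form best known from lung. Cox4i1 was at 948, 977 and 1059 CPM in control, against 790.1, 683 and 682 CPM in Myf5Cre-Pcyt2. It fell with no overlap between groups (log2 fold change −0.47 with SE 0.11, adjusted p = 0.0165). For Cox4i2 the counts were low (78, 65 and 50 for control, against 61, 75 and 46 in Myf5Cre-Pcyt2), and the groups overlapped (log2 fold change −0.32 with SE 0.23, adjusted p = 0.337).

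Levels per kilobase divide the CPM of a gene by the length of all its annotated exons, from 360 bases for Cox8b to 5773 for Cox17. The transcripts in the muscle can be shorter than that, so the order of the genes depends in part on the annotation. In control the highest of the 35 was Cox6a2 at 1136 ± 97.3 CPM per kb, followed by Cox8b at 1019.5 ± 106, Cox6b1 at 829.9 ± 70.8, Cox7a1 at 760.3 ± 40.5 and Cox4i1 at 642 ± 37.2 CPM per kb. Cox6a2 and Cox8b differed by about their SD. In Myf5Cre-Pcyt2 the order at the top was Cox8b, at 820.04 ± 54.2 CPM per kb, and then Cox6a2, at 693 ± 29.9. Cox4i2 (4.57 ± 0.805), Sco2 (4.09 ± 0.787) and Cox7c (2.27 ± 0.439 CPM per kb) were lowest in control. The places of Sco2 and Cox7c are uncertain, because 88.2% and 22.1% of their 50-base stretches are shared with other genes. The same holds for Cox11 (43.2%), Cycs (26.1%) and Uqcrb (25.5%).

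**Figure D4:**
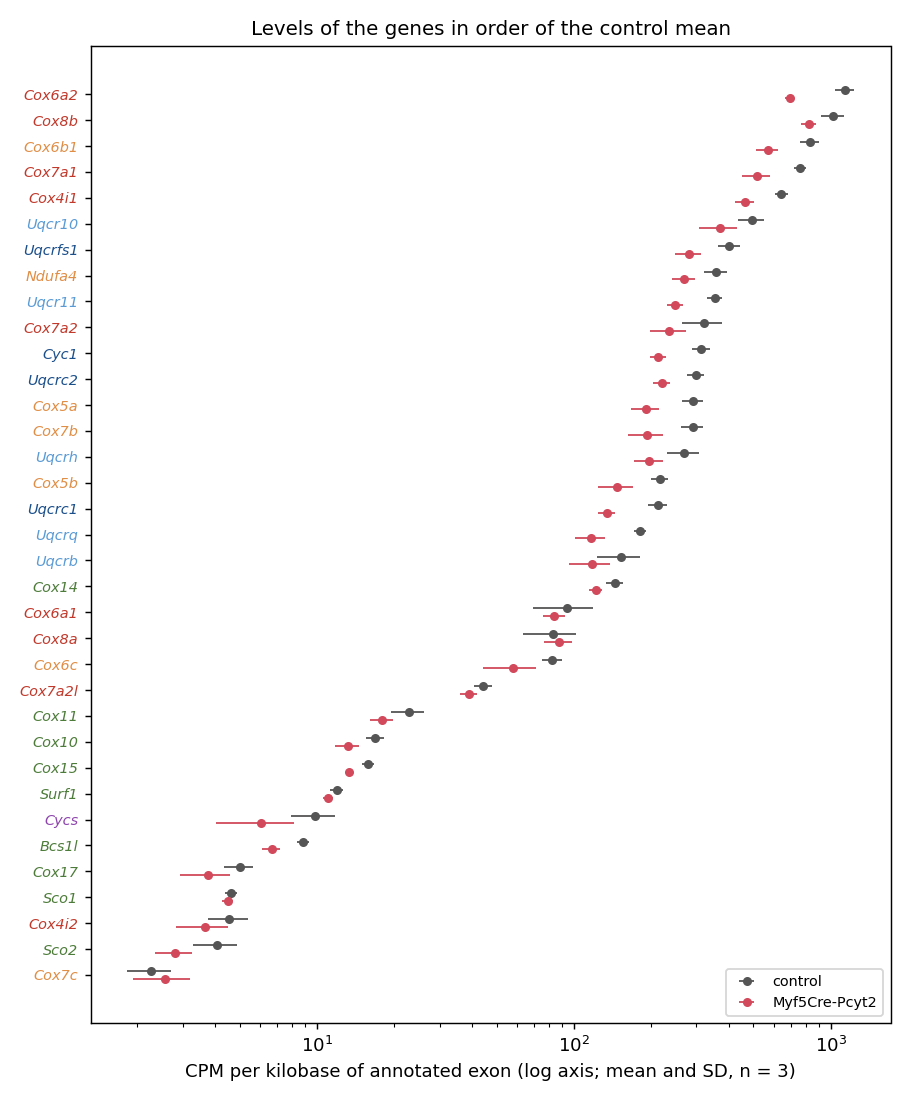
Level of each of the 35 genes per kilobase of exon, in CPM per kb on a log axis, as the mean of 3 libraries with SD, control and Myf5Cre-Pcyt2 side by side. Cox6a2 and Cox8b lead in both groups, and in control Cox4i2, Sco2 and Cox7c are at the bottom.

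The balance within each pair was compared in 4 pairs by an exact two-sided permutation test over the libraries, whose smallest possible p with 3 against 3 is 0.1, so none could pass. Per kilobase, the ratio of Cox6a2 to Cox6a1 was 9.44, 18.7 and 10.8 in control, against 8.48, 7.45 and 8.92 in Myf5Cre-Pcyt2. Every Myf5Cre-Pcyt2 library was below every control, control replicate 2 stood far above the rest, and the log2 ratio differed by −0.58 (exact permutation p = 0.1, adjusted over the 4 pairs 0.2). Without control replicate 2 the difference was −0.29. The ratio of Cox8b to Cox8a was 12.3, 14.8 and 10.8 in control, against 9.53, 8.44 and 10.4 in Myf5Cre-Pcyt2. It was likewise lower in each Myf5Cre-Pcyt2 library, with a log2 difference of −0.41 (exact permutation p = 0.1, adjusted 0.2). For Cox7a1 to Cox7a2 the ratio was 2.56, 2.57 and 2.08 in control, against 2.11, 1.99 and 2.54 in Myf5Cre-Pcyt2, with overlap and a log2 difference of −0.12 (exact permutation p = 0.5, adjusted 0.6). With Myf5Cre-Pcyt2 replicate 2 left out it was −0.048, and with replicate 3 left out −0.22, the ends of the range over single libraries left out. Cox4i2 to Cox4i1 also overlapped, with a log2 difference of 0.14 (exact permutation p = 0.6, adjusted 0.6).

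**Figure D5:**
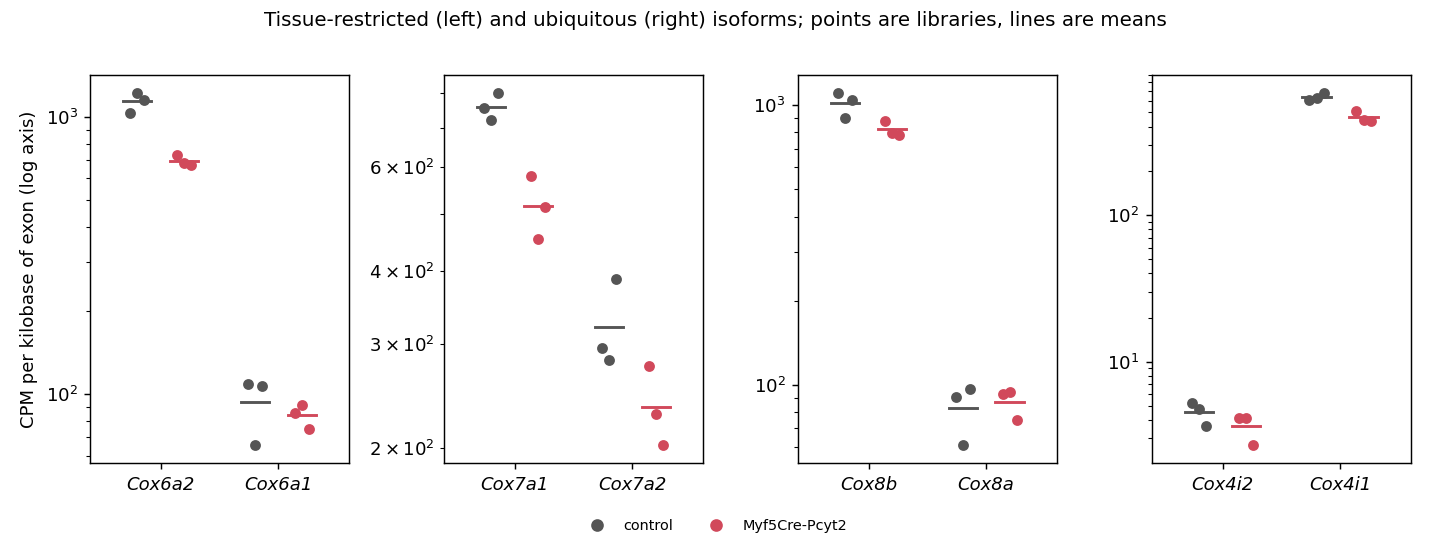
Level of each isoform per kilobase of exon (CPM per kb, log axis with its own range in each panel) for 4 pairs, the tissue-restricted form at left in each panel; points are libraries and lines are group means. Cox6a2, Cox7a1, Cox8b, Cox7a2 and Cox4i1 do not overlap between groups, and Cox6a1, Cox8a and Cox4i2 do.

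Brown fat also uses Cox7a1 and Cox8b, and the muscle samples held its markers unevenly. Ucp1, the brown fat uncoupling protein, was at 75.5, 1.80 and 30.9 CPM in control, against 8.22, 7.20 and 7.11 CPM in Myf5Cre-Pcyt2. Control replicate 1 was the highest and control replicate 2 the lowest of all 6 libraries. The summed brown adipocyte markers spanned 16.5 to 137 CPM over the controls, against 27.1 to 28.6 CPM in Myf5Cre-Pcyt2. Ppara was called lower among the 4 of 5 tested, and Elovl3 was near 0. Ppara overlapped between groups, at 13.6, 7.66 and 11.9 CPM in control, against 7.47, 6.24 and 7.85 CPM in Myf5Cre-Pcyt2. General adipocyte markers were uneven as well. Their sum spanned 320 to 889 CPM over the controls, against 434 to 506 CPM in Myf5Cre-Pcyt2, and none of the 5 genes passed. Without control replicate 1 the log2 fold change of Cox7a1 was −0.57 (adjusted p = 0.0129) and that of Cox8b −0.25 (adjusted p = 0.144). Cox6a2 and Cox7a1 are also heart genes, and the summed cardiac markers were 27.9 to 48.4 CPM over the controls, against 60.6 to 163 CPM in Myf5Cre-Pcyt2, where Myh6 and Tnnt2 rose. Myh6 was uneven, at 5.13, 3.13 and 4.34 CPM in control, against 9.50, 110 and 65.7 CPM in Myf5Cre-Pcyt2. The defining atrial markers Myl7 and Nppa were near 0 in all 6 libraries. The part of these markers in the values of Cox6a2, Cox7a1 and Cox8b was not tested.

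Of the other 7 cytochrome oxidase subunits, 6 fell. Cox5a, the nuclear subunit Va (chromosome 9, 57521274 to 57532426), was at 543, 637 and 653 CPM in control, against 456, 372 and 370.1 CPM in Myf5Cre-Pcyt2. The groups were well apart, and the level was 65.4% of the control level, with a 95% interval of 54.4 to 78.6% (log2 fold change −0.61 with SE 0.12, adjusted p = 0.00865). Cox6b1, which faces the intermembrane space, was at 551, 567 and 645 CPM in control, against 448, 379.7 and 379.5 CPM in Myf5Cre-Pcyt2 (log2 fold change −0.55 with SE 0.11, adjusted p = 0.00971). Cox7b (−0.59), Cox5b (−0.56), Cox6c (−0.51) and Ndufa4 (−0.42), first described in complex I, fell by similar amounts on the log2 scale, with adjusted p from 0.0111 to 0.0402. Cox7c did not pass, where the counts read 50, 35 and 52 for control, against 50, 85 and 50 in Myf5Cre-Pcyt2 (log2 fold change 0.18 with SE 0.24, adjusted p = 0.631). Its deposited counts are low for an abundant subunit, and 22.1% of its 50-base stretches are shared with other genes, among them 3 pseudogenes, so its value is uncertain.

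Of the 9 assembly factors Bcs1l, Cox10 and Cox15 fell, and the summed level of the 9 was 339.7, 353 and 382 CPM over the controls, against 309, 277 and 301 CPM in Myf5Cre-Pcyt2. Bcs1l, which inserts the Rieske protein into complex III (chromosome 1, 74588289 to 74592443), was at 18.5, 19.2 and 20.4 CPM in control, against 13.8, 14.1 and 15.9 CPM in Myf5Cre-Pcyt2. The lowest control exceeded the highest Myf5Cre-Pcyt2 library (log2 fold change −0.41 with SE 0.10, adjusted p = 0.0185). Cox10, a step in making the haem A of cytochrome oxidase, was at 46.8, 55.3 and 51.8 CPM in control, against 43.4, 35.4 and 41.3 CPM in Myf5Cre-Pcyt2 (log2 fold change −0.36 with SE 0.10, adjusted p = 0.0345). Cox15, which acts after Cox10 in that pathway, had a log2 fold change of −0.25 (adjusted p = 0.0474), past in 4 of 14 alternatives. Sco1, a copper chaperone for the catalytic core, had the largest p of the 9, at 17.4, 17.9 and 19.2 CPM in control, against 17.2, 17.0 and 18.7 CPM in Myf5Cre-Pcyt2. Its libraries overlapped (log2 fold change −0.04 with SE 0.09, adjusted p = 0.782). Cox17, the copper carrier upstream of Sco1, was at −0.41 and Cox11, another copper-delivery factor, at −0.35 on the log2 scale, neither past the threshold. Of the 50-base stretches of Cox11, 43.2% are shared with 4 other genes, 3 of them pseudogenes. Those genes summed to 14.4 to 18.7 CPM over the libraries, so the value of Cox11 is uncertain. Sco2 was at −0.55 (adjusted p = 0.0821), and 88.2% of its 50-base stretches belong also to the overlapping genes Ncaph2 and Tymp, so reads cannot be assigned to Sco2 alone. Surf1 (−0.11), an assembly factor whose loss causes Leigh syndrome, and Cox14 (−0.25), which acts in early assembly, did not pass.

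Other genes of the 2 complexes come from a list of further assembly factors and isoforms. Of the 26 tested, 13 fell and 0 rose, against 9.59% and 9.02% of all tested genes, and the median log2 fold change was −0.39. Taco1, which activates translation of the mitochondrial Cox1 message, went from 46.3 ± 6.59 to 24.6 ± 2.77 CPM (log2 fold change −0.91 with SE 0.12, adjusted p = 0.00233). Tmem177, tied to Cox2 assembly, and Higd2a, a supercomplex assembly factor, also fell, with log2 fold changes of −0.62 and −0.43. The 13 became 6 without control replicate 2, 2 or 7 when Myf5Cre-Pcyt2 replicate 2 or 3 was left out and 1 without both replicate 2 libraries. The share of all genes called lower in these was 4.66%, 2.85%, 4.31% and 0.835%. Of the genes encoded in mitochondrial DNA, mt-Cytb (log2 fold change −0.51 with SE 0.14, adjusted p = 0.0269) and mt-Co1 (log2 fold change −0.40 with SE 0.12, adjusted p = 0.0464) fell. The counts for mt-Co2 and mt-Co3 were at most 1 per library and could not be tested. Such counts are low for core subunits of cytochrome oxidase, so the deposited counts of mitochondrially encoded genes may be incomplete. The values of mt-Cytb and mt-Co1 are therefore uncertain too, and the reason for the low counts was not tested.

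Genes of the other respiratory complexes are set here beside the 9.59% of all tested genes called lower, and no test compared them with complexes III and IV. In complex I, 31 of 35 nuclear genes fell, with a median of −0.43, led by Ndufs6, Ndufs8 and Ndufb8. In complex II, 2 of 4 (Sdhb and Sdhc) fell, and in complex V 3 of 14 (Atp5d, Atp5e and Atp5c1), where 11 did not pass, with a median of −0.34. The regulators of nuclear respiratory genes included 5 of 16 that fell, and the median was −0.07. Perm1, a muscle regulator of oxidative genes, went from 179 ± 36.6 to 103 ± 9.76 CPM (log2 fold change −0.80 with SE 0.14, adjusted p = 0.00575), and the oestrogen-related receptors Esrrg (−0.42) and Esrra (−0.36) also fell. Tfb2m and Ppara were the others. Ppara, also on the brown adipocyte list, overlapped between groups (adjusted p = 0.0498) and passed in 6 of 14 alternatives. Ppargc1a, the coactivator PGC-1alpha, named here after its value was seen, had means of 43.5 ± 2.56 CPM over controls and 42.9 ± 8.30 CPM in Myf5Cre-Pcyt2 (log2 fold change −0.02 with SE 0.13, adjusted p = 0.919).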

How the data were processed

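RNA was sequenced from quadriceps of pups 10 days old, 3 control and 3 Myf5Cre-Pcyt2 libraries. The authors deposited whole-number counts per gene for the 6 libraries. Per the submitters' processing notes, the tools include Subread 1.6.2 with its counter featureCounts, the aligner Bowtie2 2.3.4.1 and the trimmer Trim Galore 0.5.0, and the builds are GRCm38 and mm10. Annotation release, strand setting and handling of reads that match several places were not given in those sources. The table has 54532 genes, 54409 of which were matched to a symbol, and no column of per-sample values was left unused. The 35 members and the other lists were chosen with earlier results of these data known.

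Counts were fitted over the whole table with edgeR 4.0.16 in R 4.3.3 (filterByExpr, TMM, quasi-likelihood test, Benjamini-Hochberg adjustment over 14715 genes, threshold 0.05). Standard errors are the log2 fold change over the square root of F, and intervals are at 95%. CPM are on TMM-scaled library sizes. The isoform log2 count ratios used a prior count of 0.5. Alternatives used limma 3.58.1, DESeq2 1.42.0, other scaling, filters and libraries. Shared 50-base stretches were counted in GENCODE M21 transcripts, and promoters are from the RefSeq table. Simulated counts were drawn independently for each gene from the fitted dispersion, with 200 genes changed. They hold no outlying library, so they do not show how the test behaves with the uneven replicates here. On these simulated data the test recovered 54% of 100 genes changed 1.5-fold and 91% of 100 genes changed 2-fold. Of its 151 calls there, 6 were genes without a change. A gene that did not pass can therefore still have changed. Genes named with per-library values are all isoform pair members and, in each role, the 2 with the smallest p and the 1 with the largest; in other lists up to 3 with the smallest p. The labels state no pairing of same-numbered libraries, so the block stands under the alternatives. Chi-square tests found no library that repeats another.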

Additional observations from a re-analysis of the deposited data

How the results depend on the processing

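The count of the 35 genes called lower in Myf5Cre-Pcyt2 was 22 with DESeq2 size factors, 10 with library size alone, 23 with DESeq2, 21 with limma-voom, 26 without a filter and 21 with a minimum of 1 CPM in 3 libraries. Leaving out single libraries gave 7 to 22. The count was 1 without control replicate 2 and Myf5Cre-Pcyt2 replicate 2 together, an alternative added after seeing the data. The count of genes called higher was 0 in each. Other complex III and IV genes called lower numbered 13, with 2 under library size alone, 20 without a filter, 1 without both replicate 2 libraries, and 2 to 16 over single libraries left out. The replicate block gave 15 of the 35 members (14 of them also among the 20) and 7 of the other list. Of the 6 libraries, Myf5Cre-Pcyt2 replicate 3 alone correlated best with its own number (same-numbered correlations −0.11, −0.17 and 0.02). These correlations are of deviations from means of 3 libraries, so they cannot decide whether the numbers pair the samples. Single-library omissions moved the log2 ratio of Cox6a2 to Cox6a1 between −0.78 and −0.29, that of Cox8b to Cox8a between −0.51 and −0.29. Directions reversed under library size alone for Cox6a1 (0.033), Cox7a2l (0.012), Sco1 (0.17) and Surf1 (0.10), without control replicate 2 for Cox8a (−0.10), without Myf5Cre-Pcyt2 replicate 2 for Cox7c (−0.05), and without both for Cox8a (−0.16) and Cox7c (−0.19). The Cox4i2 to Cox4i1 log2 ratio difference became −0.052 without control replicate 3. Over single libraries left out it ran from −0.052 to 0.31, and the log2 fold changes of Cox8a from −0.10 to 0.20 and of Cox7c from −0.05 to 0.32. None of these genes passed the threshold in the main analysis, and the causes were not tested. Leaving out a library leaves fewer residual degrees of freedom, and counts below about 100 limit Cox4i2 and Cox7c.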
